A study of Homo sapiens with 12 samples.

Results

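The genes described here are the oncogene MYCN and 4 genes near it in band 2p24 of human chromosome 2, namely its antisense gene MYCNOS and its neighbours DDX1, NBAS and FAM49A. They were chosen by name, not by any measured value, and are 5 of the 58051 genes in the deposited count table. All 5 were found by their Ensembl identifiers. RNA was taken from NB-1, an established human neuroblastoma cell line, after 48 h of treatment. The groups were 0.5 µM BEZ-235 with 0.5 µM SAHA, 0.5 µM SAHA alone, 0.5 µM BEZ-235 alone, and the solvent DMSO, each with 3 biological replicates. BEZ-235 inhibits the kinases PI3K and mTOR, and SAHA, also called vorinostat, inhibits histone deacetylases. All groups are the same line in the same serum-containing medium, so that the results describe 1 tumour's cells, and the sequenced RNA was polyadenylated RNA of bulk cultures.

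MYCN is a transcription factor of the MYC family that pairs with MAX and binds E-box sequences in DNA. In neuroblastoma the segment of 2p24 that holds MYCN is often present in many extra copies, an amplification known to mark aggressive disease, and NB-1 is known to carry one. Such an amplified segment often takes neighbouring genes with it, of which DDX1 and NBAS are the best known. DNA copy number was not analysed here, so that the number of copies of each gene behind the values below is not known from these data. In bulk RNA, fewer cells of a type and less RNA per cell cannot be told apart.

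The positions below are those of build hg38 in GENCODE release 29. NBAS lies at chr2:15166909-15561330 on the minus strand, DDX1 at chr2:15591178-15631111 on the plus strand, MYCNOS at chr2:15921037-15942249 on the minus strand, MYCN at chr2:15940564-15947007 on the plus strand and FAM49A at chr2:16549459-16666331 on the minus strand. MYCNOS runs against MYCN, and the 2 genes overlap over 1686 bases, of which 98 lie in exons of both. Measured from the start of MYCN, the 5′ end of NBAS is at -379 kb, that of DDX1 at -349 kb and that of FAM49A at 726 kb. The libraries were made with a kit that keeps the strand, but the strand setting of the counting is not given in the sources used here. Without it, reads from the exon stretch shared by MYCN and MYCNOS cannot be assigned with certainty. All 12 libraries had whole-number counts for MYCNOS, DDX1, NBAS and FAM49A, and 11 of 12 had one for MYCN, so that the counting divided almost no read of these genes with another gene.

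The start of MYCN is shown because the factors that bind there include the E2F factors, whose own RNA is described further below. The first sequence is the 250 bases before the MYCN start on the plus strand, chr2:15940300-15940549, and the second is 30 bases at a start of MYCNOS on the minus strand, chr2:15941664-15941693. Both come from RefSeq on GRCh38.p14. Capitals mark a match to the E2F motif TTTCGCG, read on the opposite strand, in the first sequence and a match to the HBP1-type motif TTCATTCA in the second.
MYCN: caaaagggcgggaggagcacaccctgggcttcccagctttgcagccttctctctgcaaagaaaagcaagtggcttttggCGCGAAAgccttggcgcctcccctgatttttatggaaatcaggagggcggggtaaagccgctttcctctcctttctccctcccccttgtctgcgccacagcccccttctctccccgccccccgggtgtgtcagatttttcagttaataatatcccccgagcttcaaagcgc
MYCNOS: gaaactgccatTTCATTCAcacaaggcact
The E2F match begins at base -171 from the RefSeq start of MYCN and lies between exons of MYCNOS. The HBP1-type match begins 3 bases after a MYCNOS start, in a MYCNOS exon and, on the MYCN gene, between exon 1, which ends at base 15940743, and exon 2, which begins at base 15941948. These motifs and the E-box CACGTG were searched for on both strands of promoters of 300 bases. The E2F motif was present in 1.32% of 35116 RefSeq promoters, the HBP1-type motif in 1.65% and the E-box in 7.26%. The table held promoters of 4 of the 5 genes, and those of DDX1 and NBAS and a second MYCNOS promoter had none of the 3 motifs. None of the windows held the E-box. The matches are letters in the sequence, and binding was not measured.

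Depth ran from 17662919 to 79543476 counts per library (median 20407924), with SAHA replicate 2 the deepest. The common biological coefficient of variation was 10.6%, and correlations of log2 values between replicates were 0.978 to 0.992. All 9 markers of adrenergic neuroblastoma cells, HAND2 and GATA3 among them, were above a mean of 1 CPM, counts scaled to equal library totals, in every group except the SAHA group, in which 8 were and DBH was not. The 4 fibroblast markers summed to 85.0 to 122 CPM with both drugs, 331 to 355 CPM with SAHA, 12.4 to 16.9 CPM with BEZ-235 and 62.2 to 67.2 CPM in DMSO, most of it LUM. The Schwann cell marker SOX10 was at 0 in all 12 libraries, and the 4 leukocyte markers summed to less than 1 CPM in each. The libraries with both drugs held more counts from transcripts rich in G and C. Their log2 level climbed by 0.197 to 0.450 for each 10 percentage points of GC content, against -0.215 to 0.000345 in the other 9 libraries. Values after a correction for GC content and transcript length are therefore given beside the uncorrected ones where they change a call. The slope goes with the treatment, so that a bias of these libraries and a drug effect on GC-rich transcripts cannot be told apart. The correction would remove either. GC content differs between the genes, from 56.9% in MYCN and 48.7% in MYCNOS to 46.0% in NBAS, 44.1% in DDX1 and 41.5% in FAM49A.

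Levels of different genes were compared as CPM per kb of exon. MYCN, at 304 ± 33.2 CPM per kb with both drugs, 322 ± 24.8 with SAHA, 397 ± 19.4 with BEZ-235 and 408 ± 46.3 in DMSO (mean ± SD, n = 3 each), was the highest of the 5 genes in every group. Among 17663 genes with a length it ranked 97th with both drugs, 60th with SAHA, 69th with BEZ-235 and 50th in DMSO. DDX1, an RNA helicase of the DEAD-box family, was next with 46.3, 59.9, 47.9 and 56.1 CPM per kb in the same order of groups. MYCNOS had 24.3, 24.3, 25.0 and 27.9 CPM per kb, and NBAS had 6.77, 11.4, 7.03 and 9.87 CPM per kb. FAM49A stood at the low end, with 0.453 CPM per kb under both drugs, 0.291 under SAHA, 0.0184 under BEZ-235 and 0.0118 in DMSO. The order of the 5 genes was the same in all 4 groups, and the values of neighbours in that order did not overlap between libraries of any group. The MYCN level per kb was 6.57 times that of DDX1 with both drugs, 5.37 times with SAHA, 8.28 times with BEZ-235 and 7.28 times in DMSO. ALK, a receptor tyrosine kinase gene on the same chromosome arm that is also known to be amplified in NB-1, had 651 CPM per kb with both drugs, 529 with SAHA, 685 with BEZ-235 and 579 in DMSO.

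**Figure D1:**
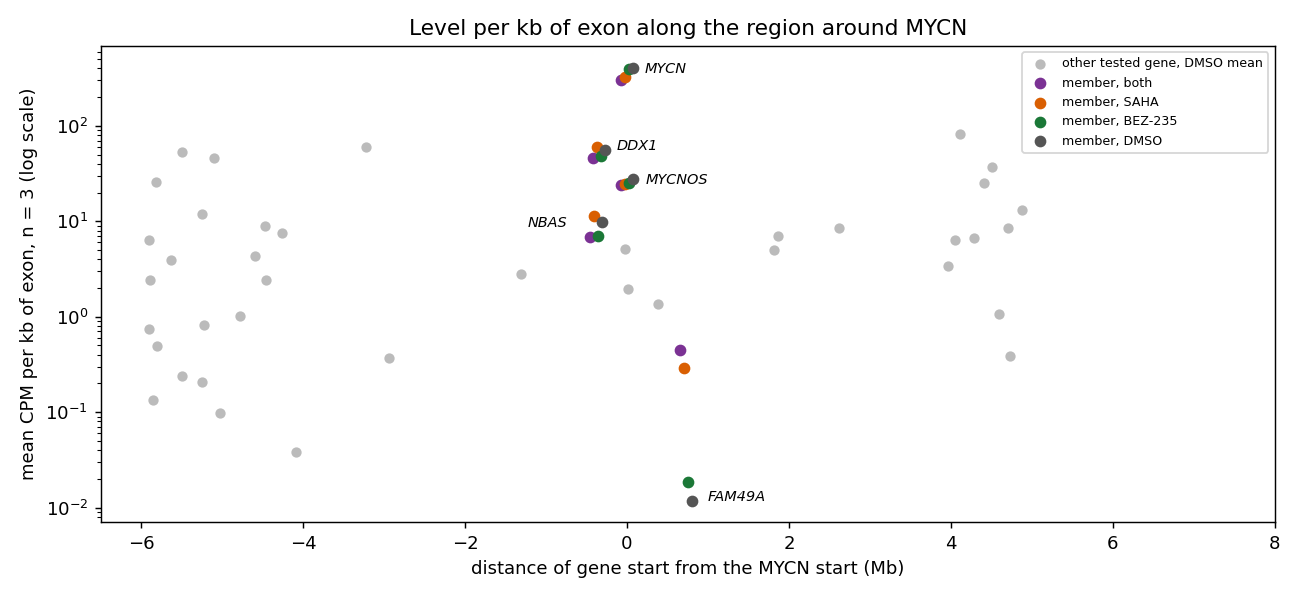
Mean level of the tested genes around MYCN in CPM per kb of exon (log scale, n = 3 libraries per group) against the distance of the gene start from the MYCN start in Mb. Coloured points are the 5 genes in each group, set slightly apart sideways, and grey points are the other tested genes in DMSO. MYCN lies above all others, from 304 to 408 CPM per kb, and FAM49A is 0.453 and 0.291 CPM per kb with SAHA in the medium, against 0.0184 and 0.0118 without it.

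MYCN RNA was lower wherever SAHA was present, and BEZ-235 alone moved it by less than its error. The 3 libraries with both drugs had 769.6, 719 and 887 CPM, those with SAHA 895, 768 and 848 CPM, those with BEZ-235 1091, 1001 and 1005 CPM, and those in DMSO 926, 1157 and 1103 CPM. Each library with SAHA, alone or with BEZ-235, was below each DMSO library, while the BEZ-235 libraries lay within the DMSO range. Of all genes tested, 66.2% did not overlap between both drugs and DMSO, 54.2% did not between SAHA and DMSO and 59.2% did not between BEZ-235 and DMSO. MYCN fell by 0.42 ± 0.10 on the log2 scale with both drugs (fitted log2 fold change ± SE; 0.746 times DMSO; edgeR's quasi-likelihood test, adjusted p = 0.00140). It fell by 0.34 ± 0.10 with SAHA alone (0.788 times DMSO, adjusted p = 0.0104 by the same edgeR test), and without SAHA replicate 2 this value was -0.28 with an adjusted p of 0.0621. BEZ-235 alone gave -0.041 ± 0.10 (edgeR adjusted p = 0.756, 95% interval -0.25 to 0.17).

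The design also shows what each drug added to the other. Both drugs against BEZ-235 alone lowered MYCN by 0.38 ± 0.10 on the log2 scale (edgeR adjusted p = 0.00356). Both drugs against SAHA alone gave -0.080 ± 0.10 (edgeR adjusted p = 0.508, 95% interval -0.29 to 0.13). The SAHA effect with BEZ-235 minus that without it, the interaction, was -0.039 ± 0.14 (edgeR adjusted p = 0.856). MYCN has the highest GC content of the 5 genes, and these statements shifted with the GC correction. After it, MYCN was -0.68 with both drugs against DMSO and -0.31 with SAHA against DMSO. Both drugs against BEZ-235 alone became -0.71 (edgeR adjusted p = 2.38e-06), both drugs against SAHA alone became -0.37 (edgeR adjusted p = 0.00142) and the interaction became -0.40 (edgeR adjusted p = 0.0280).

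**Figure D2:**
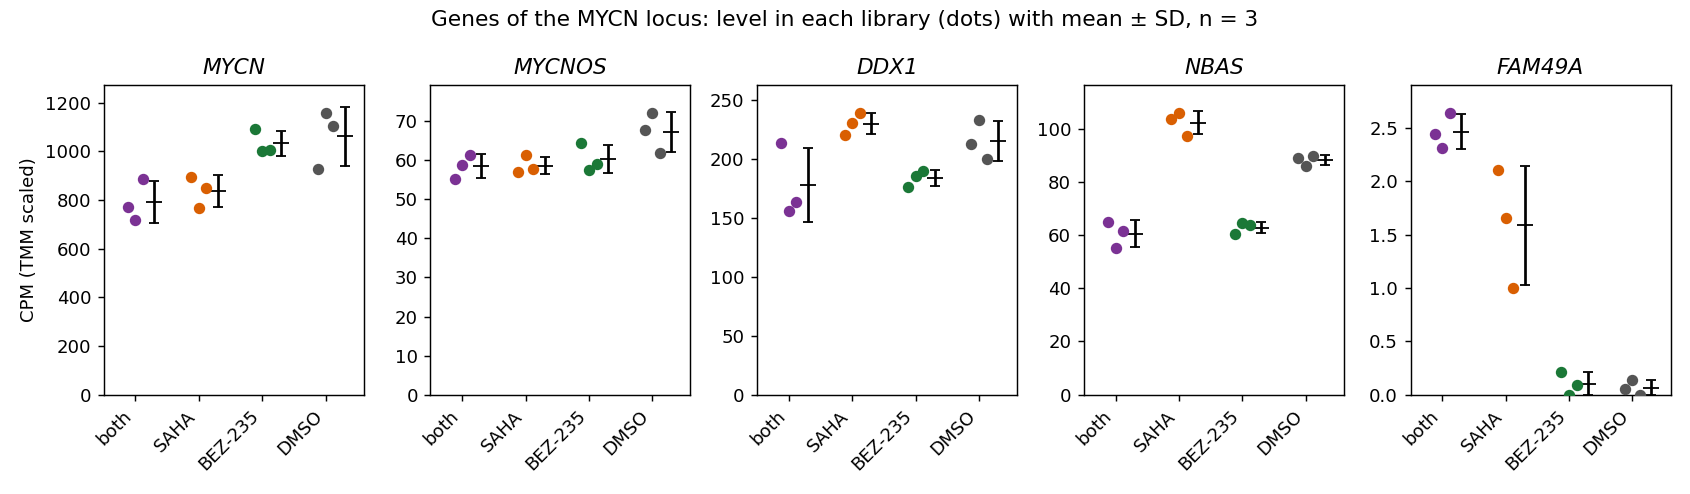
Level of each of the 5 genes in CPM (linear axis from 0) in each library. Points are libraries and bars mark the mean ± SD of 3 libraries per group. MYCN averaged 792 CPM with both drugs and 837 CPM with SAHA, against 1032 CPM with BEZ-235 and 1062 CPM in DMSO, NBAS and DDX1 are highest with SAHA, and FAM49A is near 0 without SAHA.

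MYCNOS, which is transcribed from the opposite strand of the MYCN start and in humans also encodes the protein NCYM, fell with both drugs and did not pass with either drug alone. Libraries with both drugs had 55.2, 58.9 and 61.4 CPM, those with SAHA 57.0, 61.2 and 57.7 CPM, those with BEZ-235 64.5, 57.5 and 59.0 CPM, and those in DMSO 67.8, 72.1 and 61.8 CPM. All libraries with SAHA were below all DMSO libraries, the nearest by under 1 CPM, and the BEZ-235 group overlapped DMSO. MYCNOS fell by 0.20 ± 0.08 on the log2 scale with both drugs (0.870 times DMSO, edgeR adjusted p = 0.0391). Leaving out 1 library ended this call in 5 cases, at adjusted p of 0.0782 and 0.0554 without replicates 1 and 2 of both drugs, 0.0504 without SAHA replicate 2, and 0.0723 and 0.111 without DMSO replicates 1 and 2. SAHA alone gave -0.20 ± 0.08 (edgeR adjusted p = 0.0581) and BEZ-235 alone -0.16 ± 0.08 (edgeR adjusted p = 0.116), and neither passed. Both passed after the GC correction, at -0.24 (edgeR adjusted p = 0.00925) and -0.22 (edgeR adjusted p = 0.0130). Without DMSO replicate 3 both passed too, at adjusted p of 0.0275 and 0.0423, and without BEZ-235 replicate 1 the value of BEZ-235 had an adjusted p of 0.0494. MYCNOS did not differ beyond its error between both drugs and either drug alone, with -0.043 ± 0.08 against BEZ-235 (95% interval -0.21 to 0.13) and -0.0045 ± 0.08 against SAHA (-0.17 to 0.17).

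MYCNOS counts were also read against the MYCN counts of the same library. The ratio was 7.18, 8.20 and 6.92% with both drugs, 6.37, 7.98 and 6.80% with SAHA, 5.91, 5.74 and 5.87% with BEZ-235, and 7.32, 6.23 and 5.61% in DMSO. Each treated group overlapped the DMSO range. The log2 ratio differed from DMSO by 0.22 with both drugs, 0.14 with SAHA and -0.12 with BEZ-235, with p = 0.3, 0.4 and 0.4 in an exact 2-sided permutation test of 3 libraries against 3, which cannot give less than 0.1. The GC-corrected differences were 0.42, 0.068 and -0.26, with p = 0.1, 0.9 and 0.2 in the same exact permutation test, and all libraries with both drugs were then above all DMSO libraries. MYCNUT, a further noncoding gene of the segment that overlaps MYCNOS over 27 exon bases on the opposite strand, averaged 7.04 ± 0.698 CPM with both drugs, 5.92 ± 0.313 with SAHA, 6.79 ± 0.680 with BEZ-235 and 5.36 ± 1.12 in DMSO (SD, n = 3 each).

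DDX1 was lower with both drugs than with SAHA or DMSO, before the correction for GC content. Its levels were 213, 156 and 163 CPM with both drugs, 220.2, 230.4 and 239 CPM with SAHA, 176, 185 and 189.5 CPM with BEZ-235, and 213, 233 and 199.5 CPM in DMSO. The library with both drugs that is replicate 1 lies apart from the other 2 of its group and inside the DMSO range, whereas the BEZ-235 libraries are all below DMSO. Both drugs lowered DDX1 by 0.37 ± 0.10 on the log2 scale against SAHA (0.773 times, edgeR adjusted p = 0.00476) and by 0.28 ± 0.10 against DMSO (0.826 times, edgeR adjusted p = 0.0250). The second call ended when 1 library was left out, at adjusted p of 0.106 and 0.0797 without replicates 2 and 3 of both drugs and 0.0689 without DMSO replicate 2. DDX1 has a low GC content, and after the GC correction both values, -0.13 against SAHA (edgeR adjusted p = 0.162) and -0.081 against DMSO (edgeR adjusted p = 0.351), no longer passed.

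SAHA alone left DDX1 within its error of DMSO, at 0.10 ± 0.10 (edgeR adjusted p = 0.469, 95% interval -0.12 to 0.31). BEZ-235 alone gave -0.23 ± 0.10 (0.855 times DMSO), which did not pass (edgeR adjusted p = 0.0727), but passed after the GC correction at -0.21 (edgeR adjusted p = 0.0202). It passed as well without DMSO replicate 3 (adjusted p = 0.0400) or without replicate 1 (0.00936), 2 (0.0448) or 3 (0.0497) of both drugs. Both drugs against BEZ-235 gave -0.049 ± 0.10 (edgeR adjusted p = 0.700), and without replicate 1 of both drugs -0.21 with an adjusted p of 0.0381. The interaction was -0.15 ± 0.14 (edgeR adjusted p = 0.449), and without the same library -0.31 with an adjusted p of 0.0316. MYCN was also read against DDX1 in the same library. The ratio of MYCN to DDX1 counts was 4.07, 3.33 and 3.56 with SAHA, below all DMSO libraries, which had 4.36, 4.97 and 5.53. The difference on the log2 scale was -0.44, with p = 0.1, the smallest value an exact permutation test of 3 against 3 gives. This ratio was added after the data were seen. It was 3.61, 4.61 and 5.43 with both drugs and 6.19, 5.41 and 5.30 with BEZ-235, and both groups overlapped DMSO, with differences of -0.14 and 0.19 and p = 0.6 and 0.3 in the same exact permutation test. After the GC correction the ratio was 3.11, 3.49 and 3.78 with both drugs and 4.33, 3.76 and 4.17 with SAHA, below all DMSO libraries at 4.50, 5.12 and 6.12. The differences became -0.59 with both drugs, -0.35 with SAHA and 0.25 with BEZ-235, with p = 0.1, 0.1 and 0.2 in the exact permutation test.

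NBAS, a part of the complex that tethers vesicles returning to the endoplasmic reticulum and a factor of nonsense-mediated RNA decay, had the lowest fold change of these genes with both drugs and with BEZ-235 against DMSO before the GC correction. Libraries with both drugs had 65.1, 55.1 and 61.5 CPM, those with SAHA 104, 106 and 97.5 CPM, those with BEZ-235 60.4, 64.4 and 63.8 CPM, and those in DMSO 89.2, 86.0 and 89.7 CPM. The libraries with both drugs and those with BEZ-235 were all below DMSO, and the SAHA libraries were all above it. Of all genes tested, 66.2%, 59.2% and 54.2% did not overlap with DMSO in these groups. NBAS fell by 0.54 ± 0.08 on the log2 scale with both drugs (0.686 times DMSO, edgeR adjusted p = 8.62e-06) and by 0.49 ± 0.08 with BEZ-235 alone (0.712 times DMSO, edgeR adjusted p = 4.61e-05). Against SAHA alone, both drugs lowered it by 0.76 ± 0.07 (0.592 times, edgeR adjusted p = 3.68e-07). These 3 calls passed after the GC correction as well, at -0.54, -0.57 and -0.63.

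SAHA alone raised NBAS by 0.21 ± 0.07 on the log2 scale (1.16 times DMSO, edgeR adjusted p = 0.0278). Leaving out 1 library ended this call in 4 cases, at adjusted p of 0.0517 and 0.112 without SAHA replicates 1 and 2 and 0.0585 and 0.0756 without DMSO replicates 1 and 2. The GC correction left 0.088 (edgeR adjusted p = 0.223). Both drugs against BEZ-235 alone gave -0.054 ± 0.08 (edgeR adjusted p = 0.564, 95% interval -0.21 to 0.11). The interaction was -0.27 ± 0.11 with an edgeR adjusted p of 0.0562, and passed without BEZ-235 replicate 1 (-0.30, adjusted p = 0.0454) or without replicate 1 of both drugs (-0.33, adjusted p = 0.0181). After the GC correction it was -0.062 (edgeR adjusted p = 0.655). The summed fibroblast markers given above were highest with SAHA and lowest with BEZ-235. With both drugs they summed to 85.0 to 122 CPM, against 62.2 to 67.2 CPM in DMSO, most of it LUM. LUM averaged 94.6 CPM with both drugs against 60.7 in DMSO, and DCN 1.72 against 1.34. COL1A2 averaged 0.867 CPM with both drugs against 1.675 in DMSO, and PDGFRA 0.899 against 1.67. The part of these markers in the NBAS results was not tested.

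FAM49A, now named CYRIA, encodes a protein that binds the small GTPase RAC1 and is related to CYFIP proteins. It was close to undetected without SAHA and present with it. The libraries with both drugs held 46, 42 and 58 counts and those with SAHA 41, 132 and 29 counts, against 4, 0 and 2 counts with BEZ-235 and 1, 3 and 0 counts in DMSO. On the CPM scale this was 2.45, 2.32 and 2.64 with both drugs, 2.11, 1.66 and 0.996 with SAHA, 0.214, 0 and 0.0860 with BEZ-235 and 0.0522, 0.141 and 0 in DMSO. Every library with SAHA was above every library without it. A count of 0 allows up to 0.160 CPM in BEZ-235 replicate 2 and 0.133 CPM in DMSO replicate 3, which is the level of 3 counts. FAM49A passed the filter on low counts only through the SAHA and combination libraries, since none of the BEZ-235 or DMSO libraries reached the filter's 0.49 CPM. A gene that enters the test in this way has to differ between these groups, and its call is not counted with those of the other 4 genes.

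The summed FAM49A counts were 146 with both drugs and 202 with SAHA, against 6 with BEZ-235 and 4 in DMSO. Scaled to the library sizes, FAM49A with both drugs was 39.0 times DMSO (95% interval 14.9 to 145) and 25.0 times BEZ-235 (11.2 to 69.3). With SAHA alone it was 24.8 times DMSO (9.53 to 91.9). The intervals are exact binomial ones and cover counting error only. The fit gave log2 fold changes of 5.17 ± 0.60 with both drugs and 4.53 ± 0.61 with SAHA against DMSO, given without p because of the filter. These folds rest on the few DMSO counts, and were 6.40 and 5.77 without DMSO replicate 2 and 4.56 and 3.93 without DMSO replicate 3. The DMSO level per kb was 0.0048 and 0.0178 without these libraries, and that of BEZ-235 was 0.0079 without its replicate 1 and 0.0276 without its replicate 2. BEZ-235 alone was 1.56 times DMSO (0.369 to 7.50), a range too wide to show a difference at this depth. Both drugs were 1.57 times SAHA in summed counts (1.26 to 1.96). The fit across libraries gave 0.65 ± 0.37 for this difference, which did not pass (edgeR adjusted p = 0.144, 95% interval -0.14 to 1.43), and 1.06 after the GC correction, which passed (edgeR adjusted p = 0.0255). In the libraries with SAHA alone, the Schwann marker sum of 6.70 to 7.61 CPM was above the 2.09 to 3.66 CPM in DMSO, and that of both drugs was 5.69 to 6.59 CPM, with SOX10 at 0 throughout. The fibroblast sum was also higher with SAHA. The part of either in the FAM49A result was not tested.

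Of the 4 genes that had enough counts in every group, 4 fell with both drugs against DMSO, where 64.4% of all genes tested passed in either direction and 31.2% were lower. With SAHA 1 rose and 1 fell, where 43.1% of all genes passed, 22.2% higher and 20.9% lower. With BEZ-235 1 fell, NBAS, where 50.9% passed and 25.4% were lower. Against BEZ-235, both drugs lowered 1 of the 4, MYCN, where 58.0% of genes passed and 28.5% were lower. Against SAHA they lowered 2, DDX1 and NBAS, where 58.8% passed and 28.9% were lower. None passed for the interaction in edgeR, where 38.4% of genes did, while 1 of the 4, NBAS, had an unadjusted p under 0.05 and passed in DESeq2. After the GC correction the count for both drugs against DMSO became 3, without DDX1. With BEZ-235 it became 3 lower, MYCNOS, DDX1 and NBAS, and with SAHA 2 lower, MYCN and MYCNOS. The share of all genes that passed in either direction was then 65.5% with both drugs, 56.0% with BEZ-235 and 49.8% with SAHA. The median log2 fold change of all genes tested was 0.034 with both drugs, -0.0054 with SAHA and 0.017 with BEZ-235. The comparisons against DMSO share the DMSO libraries, so that their values for the 5 genes are not independent of each other.

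**Figure D3:**
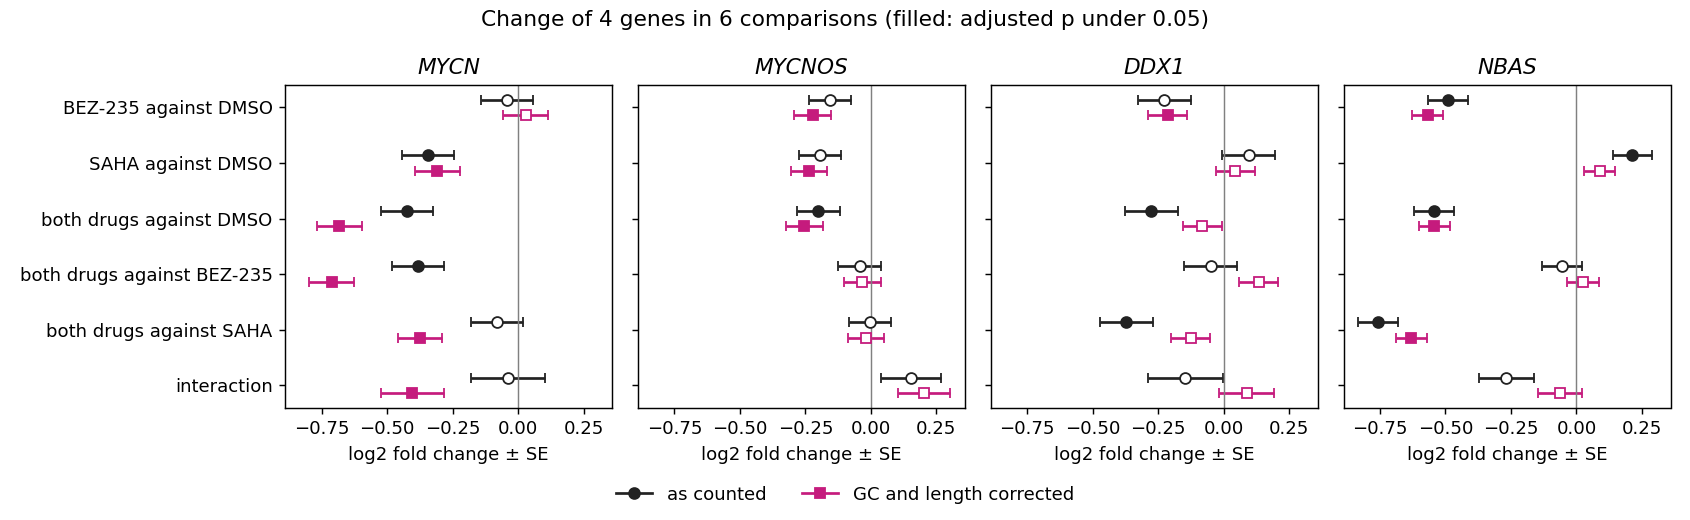
Fitted log2 fold change ± SE of MYCN, MYCNOS, DDX1 and NBAS in 6 comparisons, as counted (circles) and after the GC and length correction (squares), with filled symbols where the adjusted p is under 0.05. NBAS lies at -0.54 with both drugs and -0.49 with BEZ-235 against DMSO as counted, both filled in either version, while MYCN moves further below 0 and DDX1 nearer to 0 after the correction in the comparisons of both drugs with DMSO and SAHA.

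Genes around the 5 changed in both directions. GENCODE has 157 other genes in the count table that start between 10 and 21 Mb on chromosome 2, and 39 of them were tested. With both drugs 10 rose and 16 fell against DMSO (66.7% of the 39), with SAHA 10 rose and 7 fell (43.6%), and with BEZ-235 8 rose and 14 fell (56.4%). These shares are near those of all genes tested. Their median log2 fold change was -0.25 with both drugs, 0.089 with SAHA and -0.090 with BEZ-235. RRM2, the small subunit of ribonucleotide reductase, had the lowest values, with log2 fold changes of -4.34 ± 0.13 with both drugs (edgeR adjusted p = 3.02e-13) and -3.90 ± 0.13 with BEZ-235. GEN1, a resolvase of Holliday junctions, fell by 3.09 ± 0.11 with both drugs, and SDC1, the proteoglycan syndecan 1, fell by 2.35 ± 0.12 with BEZ-235. HPCAL1, a neuronal calcium sensor, and HS1BP3 rose with both drugs, by 1.24 ± 0.10 and 1.23 ± 0.09. SAHA alone raised LAPTM4A, a lysosomal membrane protein, by 0.64 ± 0.08 and HS1BP3 by 0.51 ± 0.09. It lowered ODC1, the ornithine decarboxylase of polyamine synthesis and a known MYCN target, by 0.86 ± 0.10 (edgeR adjusted p = 5.16e-06), and RHOB, a small GTPase, by 0.69 ± 0.13. BEZ-235 alone raised KLF11, a transcription factor of the Krüppel-like family, by 0.56 ± 0.09 and PUM2, an RNA-binding protein, by 0.32 ± 0.09. Of these named genes, GEN1 starts nearest to MYCN, at 1.81 Mb.

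**Figure D4:**
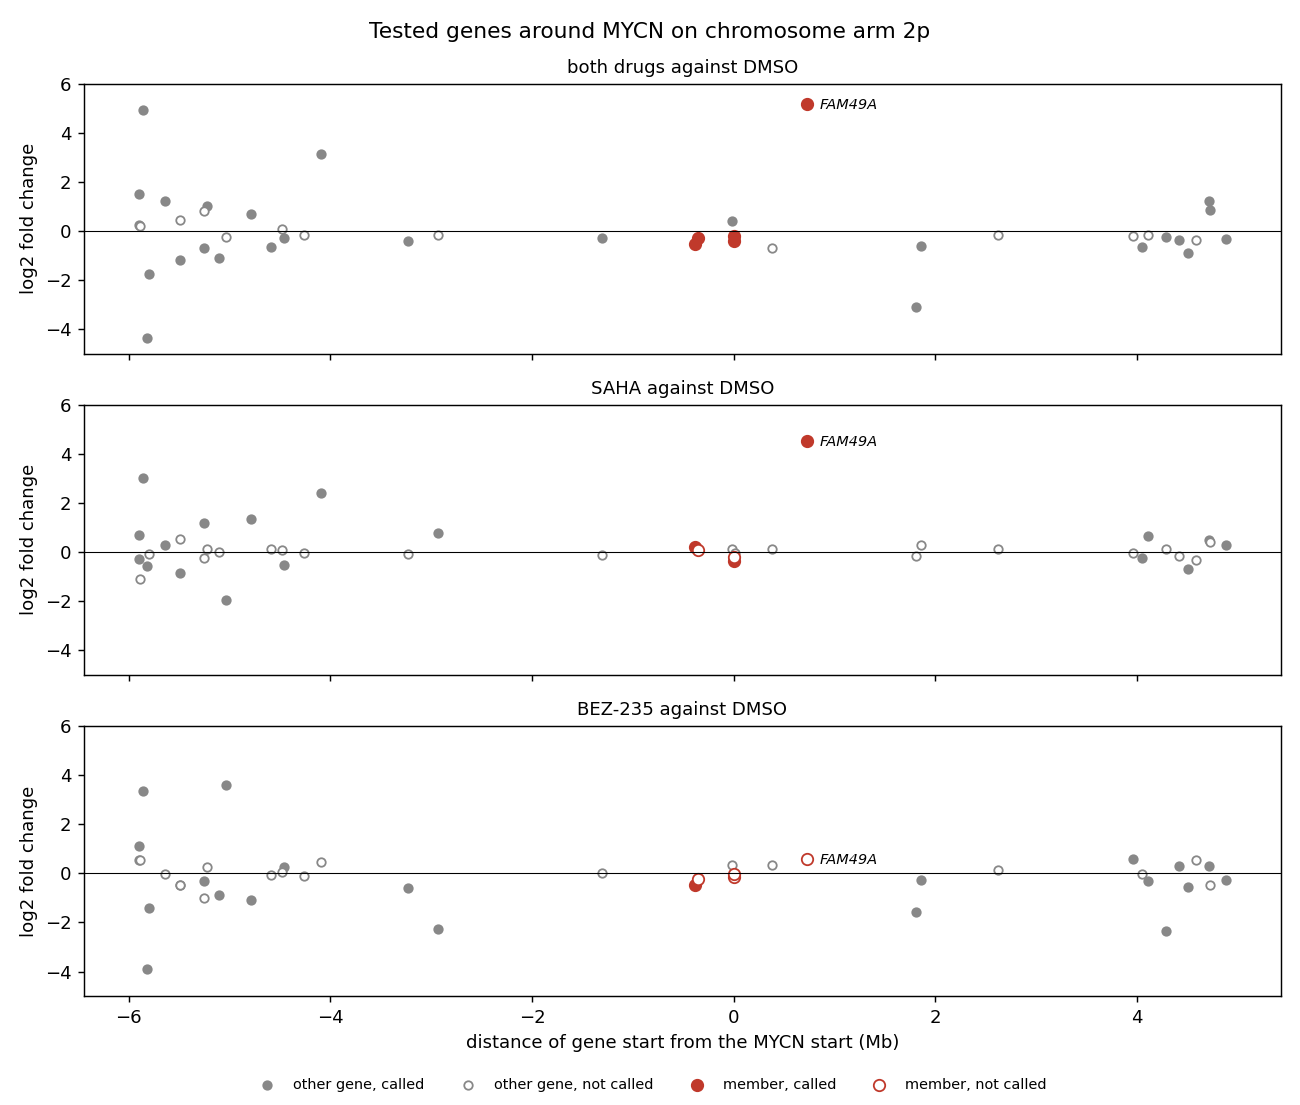
Log2 fold change of the tested genes around MYCN against the distance of the gene start from the MYCN start in Mb, with both drugs, SAHA or BEZ-235 against DMSO. Filled points passed the test at an adjusted p under 0.05, red points are the 5 genes and grey points the other 39. Changes of both signs stand side by side along the region, and FAM49A at 5.17 and 4.53 is above its neighbours with both drugs and with SAHA, having entered the test only through libraries with SAHA.

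Among 18 genes that act on MYCN protein, all tested, 4 rose and 10 fell with both drugs, 2 rose and 4 fell with SAHA, and 5 rose and 10 fell with BEZ-235, all against DMSO. Of all genes tested, 64.4%, 43.1% and 50.9% passed in these comparisons, and 31.2%, 20.9% and 25.4% passed as lower. With the GC correction 3 rose and 13 fell with both drugs, 3 rose and 6 fell with SAHA, and 5 rose and 11 fell with BEZ-235. Of all genes tested, 65.5%, 49.8% and 56.0% then passed. The median log2 fold change of the 18 genes, without this correction, was -0.35, 0.0010 and -0.23 in the same order. PIM1, a kinase known to stabilise MYC proteins, rose on the log2 scale by 2.99 ± 0.09 with both drugs, 1.41 ± 0.09 with SAHA and 2.20 ± 0.09 with BEZ-235. MXI1, a MAX partner that opposes MYC proteins, rose by 0.91 ± 0.08, 0.25 ± 0.08 and 1.05 ± 0.08. CIP2A, which shields MYC from the phosphatase PP2A, fell, with log2 fold changes of -3.32 ± 0.14 with both drugs and -2.15 ± 0.12 with BEZ-235. EZH2, a histone methyltransferase reported to stabilise MYCN, fell as well, with -1.46 ± 0.08 and -1.21 ± 0.08 in these groups. SAHA alone lowered MXD1 by 0.50 ± 0.09 and MNT by 0.53 ± 0.11, both MAX partners that repress. All of these passed the edgeR test at adjusted p of 0.0141 or below.

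Of 16 factors known to bind the MYCN gene or its enhancers in neuroblastoma cells, 15 were tested. With both drugs 8 rose and 6 fell, with SAHA 4 rose and 2 fell, and with BEZ-235 4 rose and 6 fell, with median log2 fold changes of 0.26, -0.020 and -0.14. The shares of all genes that passed, in the same order, were 64.4%, 43.1% and 50.9%, with 31.2%, 20.9% and 25.4% lower. Corrected for GC, 7 rose and 7 fell with both drugs, 5 rose and 4 fell with SAHA, and 6 rose and 6 fell with BEZ-235. Of all genes tested, 65.5%, 49.8% and 56.0% then passed. E2F1, a cell cycle factor of the kind whose motif lies before the MYCN start, fell in all 3 treatments, with log2 fold changes of -3.47 ± 0.12 with both drugs, -0.39 ± 0.10 with SAHA and -3.32 ± 0.12 with BEZ-235. E2F2 fell as well, with -2.65 ± 0.13 with both drugs and -3.59 ± 0.14 with BEZ-235 on the same scale. HBP1, a repressor whose type of motif lies at a MYCNOS start, rose in all 3 treatments. Its log2 fold changes were 0.48 ± 0.11 with both drugs, 0.29 ± 0.10 with SAHA and 0.86 ± 0.11 with BEZ-235. SP1, a general activator, rose by 0.48 ± 0.08 with BEZ-235. The LIM protein LMO1 rose by 1.52 ± 0.20 with both drugs and by 0.63 ± 0.20 with SAHA, and TBX2, a T-box factor, rose by 0.74 ± 0.11 with both drugs. TWIST1, a helix-loop-helix factor, fell by 0.62 ± 0.13 with SAHA, and SP1 rose by 0.30 ± 0.08. These calls had edgeR adjusted p of 0.0321 or below and passed after the GC correction too. TBX2 was then at 0.31 with both drugs, and SP1 was at 0.17 and E2F1 at -0.20 with SAHA.

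The genes most like each of the 5 across the 12 libraries were taken by Pearson's r of log2 CPM among about 10735 well-expressed genes. These r are descriptions, since the libraries fall into 4 groups and share depth and GC differences. NBAS was most like the mitotic genes CKAP5 (r = 0.991), BUB1 (0.990) and CENPF (0.988). BUB1, a kinase of the spindle checkpoint, averaged 23.9 CPM with both drugs, 97.8 with SAHA, 26.1 with BEZ-235 and 69.3 in DMSO. DDX1 was most like CTNNB1 (0.984), HDAC2 (0.974) and KATNA1 (0.967). MYCN was most like the TATA-binding protein gene TBP (0.920), COQ6 (0.912) and ZNF239 (0.899), and MYCNOS was most like EPS15L1 (0.914), SRRT (0.912) and REPIN1 (0.903). FAM49A was most like HDAC1, FITM2 and DLX4, each at 0.982. It was close to undetected without SAHA and entered the test only through libraries with SAHA. These r for FAM49A therefore mostly rank genes by a rise in the libraries with SAHA. HDAC1, a histone deacetylase, averaged 63.8 CPM with both drugs, 56.2 with SAHA, 45.2 with BEZ-235 and 42.8 in DMSO. Among the 5 genes themselves r was 0.850 for DDX1 and NBAS, which lie next to each other, 0.566 for MYCN and MYCNOS, and 0.0708 for MYCN and DDX1.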

How the data were processed

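Polyadenylated RNA of 12 NB-1 cultures was sequenced from stranded libraries, per the labels' protocols. The submitters' processing notes name STAR, RSEM and hg38. Their versions, the annotation and the strand setting were not given in the sources used here. Deposited by the authors were expected counts, estimated by RSEM per gene and not scaled for depth or length. Between 80.07 and 84.75% of values per library were whole (tolerance 1e-09), and all were rounded. GENCODE release 29 held 57447 of the 58051 identifiers.

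Groups came from the treatment labels. One edgeR 4.0.16 model (R 4.3.3) of all 12 libraries, with a mean for each of the 4 groups (8 residual degrees of freedom), used TMM factors of 0.981 to 1.028 and robust 2-sided quasi-likelihood tests. It covered the 17774 genes that filterByExpr left, with Benjamini-Hochberg adjustment over them and calls under 0.05. CPM use library totals times the TMM factors, and CPM per kb divides by the length of all exons joined. The GC correction is an offset per library from splines (5 degrees of freedom each) on GC content and length of the longest transcript, fitted to log2 CPM (prior count 2). Ratios of counts, with 0.5 added to each count, were tested by exact permutation.

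With 17662919 to 79543476 counts per library, the spread between cultures limits the precision, except for FAM49A, where depth does. Tried as alternatives were DESeq2 1.42.0, relative log expression factors, other filters on low counts (none, or a mean of 1 CPM), counts without rounding, the replicate number as a block, the GC correction with and without that block, fits of only the groups compared, longest-transcript lengths and leaving out libraries singly. A correction for GC content alone, the ratio of MYCN to DDX1 and the GC correction of both ratios were chosen after seeing the data. The members and gene lists were chosen with earlier results of these data known. Named are the 5 genes; in the region, the 2 highest and 2 lowest called fold changes at a mean log2 CPM of 3 or more; in each list, up to 2 genes per direction by p; and the 3 genes most like each member. The fits were tested on simulated data.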

Additional observations from a re-analysis of the deposited data

Results flagged for a closer look

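None of the 5 genes at the MYCN locus had an effect of SAHA that passed the test for a difference between cultures with and without BEZ-235. For FAM49A that test could not decide, with 0.047 ± 4.44 on the log2 scale (95% interval -9.35 to 9.45). After the GC correction MYCN passed, at -0.40 (edgeR adjusted p = 0.0280), where 19.0% of all genes tested passed. Groups of 3 libraries were not searched for outlying samples. Of the other genes whose fold changes are given in the text, 16 had an SAHA effect with BEZ-235 that differed from the one without it. The test was the interaction test of edgeR, adjusted over all genes, of which 38.4% passed. KLF11, RRM2, RHOB, ODC1, EZH2, E2F1, LMO1 and TWIST1 did not pass. All were named for their fold changes or p in these same libraries, so that their count cannot be set against that share. The values below are the effect with BEZ-235 minus the effect without it on the log2 scale.

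SDC1 had 1.98 ± 0.16 (adjusted p = 3.72e-06), from 2.10 with BEZ-235 and 0.12 without it, and HPCAL1 had 0.98 ± 0.14. TBX2 had 0.81 ± 0.16, E2F2 0.78 ± 0.20, MNT 0.47 ± 0.16 and HS1BP3 0.42 ± 0.12. On the other side GEN1 had -1.37 ± 0.14 (adjusted p = 1.90e-05), from -1.51 with BEZ-235 and -0.14 without it, and CIP2A had -1.17 ± 0.18. HBP1 had -0.68 ± 0.15, PIM1 -0.62 ± 0.12, SP1 -0.52 ± 0.11, PUM2 -0.52 ± 0.12 and LAPTM4A -0.48 ± 0.12. MXD1 had -0.40 ± 0.13 and MXI1 -0.39 ± 0.11. CYS1, which is in the count above, had -1.43 ± 0.37. It was chosen after its values were seen, and its DMSO mean of 0.384 CPM lies below the filter's 0.49 CPM. Its call is therefore not a test of how the drugs combine. With the GC correction 19.0% of all genes tested passed for the interaction. After it SDC1, HPCAL1, GEN1, CIP2A, HBP1, PIM1 and LAPTM4A still passed, at 1.39, 0.43, -0.80, -0.49, -0.35, -0.94 and -0.29. So did CYS1, with the limit just given, at -2.12. The other 8 did not, while E2F1 passed then, at -0.54 (adjusted p = 0.0142).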

How the results depend on the processing

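Relative log expression scaling and unrounded values changed no call of the 5 genes. No effect shared by libraries of the same replicate number was seen, which does not settle whether the cultures were paired. Deviations of same-numbered libraries from their group means correlated at -0.164 to 0.128, and 1 of 12 libraries correlated best with its own number. The replicate block gave 11037, 7095 and 8562 called genes (both drugs, SAHA, BEZ-235 against DMSO), and left NBAS with SAHA at 0.21 (adjusted p = 0.0511) and MYCNOS with both drugs at -0.20 (0.0637), both no longer past the threshold. It changed no other call of the 5 genes.

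The GC and length correction, the same with the replicate block, and the GC correction alone, in this order, gave these changed values. Against DMSO, MYCNOS was -0.22, -0.22 and -0.22 with BEZ-235 and -0.24, -0.24 and -0.26 with SAHA. DDX1 was -0.081, -0.082 and -0.13 with both drugs and -0.21, -0.21 and -0.27 with BEZ-235, and NBAS was 0.088, 0.088 and 0.15 with SAHA. MYCN with BEZ-235 turned to 0.029 and 0.030 in the first 2. Both drugs against BEZ-235 turned to 0.13, 0.13 and 0.14 for DDX1 and to 0.026, 0.026 and 0.041 for NBAS. Both drugs against SAHA gave -0.37, -0.38 and -0.41 for MYCN, -0.13, -0.13 and -0.16 for DDX1 and 1.06, 1.11 and 1.05 for FAM49A. The interaction gave -0.40, -0.41 and -0.39 for MYCN and 0.088, 0.085 and 0.12 for DDX1, and 3380, 2872 and 3075 called genes, against 6834 without correction. DDX1 with BEZ-235 passed without the filter (-0.26) and in a fit of only the groups compared (-0.24). MYCNOS with SAHA passed in DESeq2 (-0.20), and with both drugs did not under the stricter filter (-0.18). NBAS with SAHA did not pass without the filter (0.23), and its interaction passed in DESeq2 (-0.26) and under the stricter filter (-0.27). The cause of these changes was not tested, except that a change of the filter changes which genes are tested.

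With the longest transcript as length, levels per kb with both drugs, SAHA, BEZ-235 and in DMSO became 44.6, 44.7, 45.9 and 51.2 for MYCNOS, 63.0, 81.5, 65.2 and 76.3 for DDX1 and 8.32, 14.1, 8.63 and 12.1 for NBAS, and 0.528 with both drugs for FAM49A.

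Leaving out each library in turn moved the log2 fold change of FAM49A between 4.56 and 6.40 with both drugs and between 3.93 and 5.77 with SAHA against DMSO, and between 4.05 and 5.57 with both drugs against BEZ-235. It gave these ranges for the results whose call or sign changed. For both drugs against DMSO, they were -0.28 to -0.17 for MYCNOS and -0.45 to -0.20 for DDX1. For SAHA against DMSO, they were -0.43 to -0.28 for MYCN, -0.25 to -0.14 for MYCNOS and 0.19 to 0.25 for NBAS. For BEZ-235 against DMSO, they were -0.14 to 0.015 for MYCN, -0.23 to -0.11 for MYCNOS, -0.29 to -0.18 for DDX1 and -0.41 to 1.84 for FAM49A. For both drugs against BEZ-235, they were -0.078 to 0.0083 for MYCNOS, -0.21 to 0.034 for DDX1 and -0.11 to 0.0071 for NBAS. For both drugs against SAHA, they were -0.056 to 0.029 for MYCNOS. For the interaction, they were -0.13 to 0.038 for MYCN, -0.31 to -0.066 for DDX1, -0.33 to -0.21 for NBAS and -1.21 to 1.04 for FAM49A. The MYCN to DDX1 log2 ratio with both drugs lay between -0.27 and 0.022.

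Depth limits FAM49A, whose summed counts are 6 with BEZ-235 and 4 in DMSO, and p-values measure the spread between 3 cultures of 1 line.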

Other observations

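Besides the genes named by rule, 2 lowly expressed genes of the region, chosen after their values were seen, had large changes. CYS1, the gene of the ciliary protein cystin, which starts at -5.86 Mb from MYCN, averaged 11.7 ± 1.98 CPM with both drugs, 3.16 ± 0.831 with SAHA and 3.93 ± 0.385 with BEZ-235, against 0.384 ± 0.172 in DMSO (SD, n = 3 each). Its log2 fold change against DMSO was 4.92 ± 0.28 with both drugs, 3.00 ± 0.30 with SAHA and 3.34 ± 0.30 with BEZ-235. These are given without p, since CYS1 was chosen by its values. Its DMSO mean also lies below the filter's 0.49 CPM. KCNF1, a potassium channel subunit gene at -5.03 Mb, averaged 0.188 ± 0.0849 CPM with both drugs, 0.0495 ± 0.0144 with SAHA and 2.78 ± 0.562 with BEZ-235, against 0.226 ± 0.190 in DMSO.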
